A study of Mus musculus with 28 samples.

Results

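The 10 genes described here encode the protein axis of meiotic chromosomes, the synaptonemal complex built on it, and the nuclease that starts meiotic recombination: Sycp1, Syce1, Syce2, Sycp2, Sycp3, Hormad1, Smc1b, Rec8, Stag3 and Spo11. They were chosen by name from the 37583 genes of each expression table, and each name was found once in both tables. Levels are the RPKM values that the authors deposited, which scale the reads of a gene by its exon length and by the depth of the library.

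Total RNA depleted of ribosomal RNA was sequenced from mouse embryonic stem cells (mESCs) and from embryoid bodies (EBs), cell clumps that differentiate without LIF, collected at day 5. The CJ7 line was given, at each stage, as Eed null cells, as cells edited to carry the K754M or the K754R substitution in Elongin A (EloA), and as wild type (WT), with 2 libraries per group. The CCE (CCE28) line was given as mESCs that were EloA null or WT, with 3 libraries each, and as 3 groups of 2 EB libraries. All mESCs, WT included, were grown on mouse embryonic fibroblast feeders in LIF with the inhibitors PD0325901 and CHIR99021 (2i), and the feeders were removed by a short plating step before lysis. The number of clones behind each genotype was not given, nor whether replicates were separate cultures, so p-values measure only the spread between libraries, which may be technical. For 4 CCE EB libraries the labels contradict the column names. In pair A the titles say EloA null and the columns EloAhet, and in pair B the titles say EloA+/- and the columns EloAnull. No genotype was assigned to either pair.

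In meiotic prophase each pair of sister chromatids is organised along a protein axis, and the axes of homologous chromosomes are then zipped together by the synaptonemal complex. The axis is laid down on cohesin rings that carry meiotic subunits. Smc1b replaces the somatic Smc1a, Rec8 replaces Rad21, and Stag3 takes the place of Stag1 or Stag2. Sycp2 and Sycp3 form the lateral element on these rings, and Hormad1 marks axes that are not yet synapsed. Sycp1 forms the transverse filaments that span the gap, and Syce1 and Syce2 belong to the central element between them. Spo11 makes the DNA double-strand breaks that start recombination. Such genes are mostly silent outside the germline, where DNA methylation and the variant Polycomb complex PRC1.6, whose Mga, Max and E2f6 subunits bind DNA, are known to hold many of them down. Eed is a core subunit of PRC2, the complex that methylates histone H3 at lysine 27, and Elongin A is a transcription elongation factor of RNA polymerase II that the series title links to PRC2.

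Promoter sequence is shown for 6 members, so that the starts of these genes can be set side by side. All but Hormad1 had an adjusted p below 0.05 between Eed null and WT cells at either stage. Hormad1 is shown for its EB levels alone, since it entered that test only through Eed null libraries. Windows run from 250 bases before to 50 after the annotated start, 5′ to 3′ on the strand of the gene, from RefSeq on GRCm38.p6. The 9 members found in that table, all but Spo11, have 11 windows. Capitals mark CACGTG, the E-box core that Max dimers bind, and GGCGGG on either strand, an E2F-type core that also occurs in GC boxes. The Syce1 window lies at chr7:140787805-140788104 (minus strand), the Sycp1 window at chr3:102936051-102936350 (minus strand), the Sycp2 window at chr2:178407609-178407908 (minus strand) and the Hormad1 window at chr3:95559427-95559726 (plus strand). The Smc1b window lies at chr15:85131908-85132207 (minus strand) and the Rec8 window at chr14:55617916-55618215 (plus strand).
Syce1: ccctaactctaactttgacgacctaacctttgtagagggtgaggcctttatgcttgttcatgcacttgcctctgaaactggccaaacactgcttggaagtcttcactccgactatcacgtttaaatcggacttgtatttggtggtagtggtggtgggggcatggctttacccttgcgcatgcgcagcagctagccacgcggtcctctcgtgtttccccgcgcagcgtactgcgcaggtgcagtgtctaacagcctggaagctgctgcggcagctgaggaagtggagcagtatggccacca
Sycp1: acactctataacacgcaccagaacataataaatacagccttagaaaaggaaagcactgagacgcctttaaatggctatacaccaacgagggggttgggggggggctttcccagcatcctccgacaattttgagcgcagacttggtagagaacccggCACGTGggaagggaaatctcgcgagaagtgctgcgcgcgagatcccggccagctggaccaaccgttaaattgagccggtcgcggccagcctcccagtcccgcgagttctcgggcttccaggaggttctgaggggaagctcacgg
Sycp2: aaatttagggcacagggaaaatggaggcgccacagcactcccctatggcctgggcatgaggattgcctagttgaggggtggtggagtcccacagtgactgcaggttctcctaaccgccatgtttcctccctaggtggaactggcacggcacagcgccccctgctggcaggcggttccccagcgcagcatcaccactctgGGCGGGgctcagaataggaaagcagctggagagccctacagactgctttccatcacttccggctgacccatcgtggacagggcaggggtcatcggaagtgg
Hormad1: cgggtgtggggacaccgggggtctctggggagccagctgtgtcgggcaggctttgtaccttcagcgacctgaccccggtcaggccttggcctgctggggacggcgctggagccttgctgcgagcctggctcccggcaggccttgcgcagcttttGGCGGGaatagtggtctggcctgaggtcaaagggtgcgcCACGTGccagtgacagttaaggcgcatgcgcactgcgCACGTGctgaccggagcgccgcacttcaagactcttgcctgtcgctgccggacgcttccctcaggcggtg
Smc1b: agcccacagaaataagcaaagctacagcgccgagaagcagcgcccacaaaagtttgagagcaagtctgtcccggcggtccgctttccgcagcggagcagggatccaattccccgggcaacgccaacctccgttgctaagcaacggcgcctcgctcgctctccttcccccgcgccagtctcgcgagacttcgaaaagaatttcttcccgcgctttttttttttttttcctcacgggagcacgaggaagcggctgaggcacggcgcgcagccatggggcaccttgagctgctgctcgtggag
Rec8: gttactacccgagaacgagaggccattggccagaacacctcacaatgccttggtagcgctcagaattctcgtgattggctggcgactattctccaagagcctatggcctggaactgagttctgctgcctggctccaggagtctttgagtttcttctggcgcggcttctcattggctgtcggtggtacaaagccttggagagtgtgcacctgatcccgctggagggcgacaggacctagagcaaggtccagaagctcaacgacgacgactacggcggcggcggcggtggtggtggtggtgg

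Syce1 holds neither motif, and neither do Smc1b and Rec8. The first base of the single CACGTG of Sycp1 lies 94 bases before the start, and that of the single GGCGGG of Sycp2 lies 51 bases before it. Hormad1 has 2 CACGTG sites, 57 and 20 bases before the start, and 1 GGCGGG. Over all members, CACGTG occurs in 6 of the 11 windows (5 members) and GGCGGG in 7 (5 members). Of all 32851 RefSeq promoter windows of this length, 7.15% hold CACGTG and 35.3% hold GGCGGG. The member windows hold 10 to 33 CpG dinucleotides, against a median of 7 over all windows. A match of letters is a description and not a binding site, and the motifs are present in members whose RNA rose and in members whose RNA did not.

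Library depth in units of 1000000 reads, recovered from the RPKM step that 1 read gives, was 11.1 to 18.2 in CJ7 mESCs, 24.3 to 46.4 in CCE mESCs, 28.7 to 39.9 in CJ7 EBs and 23.6 to 30.9 in CCE EBs. The EloA null CCE mESC libraries, at 24.3 to 34.7, were all shallower than the WT ones, at 42.9 to 46.4. Eed was 22.1 to 22.3 RPKM in Eed null mESCs, against 105 to 119 RPKM in WT, and 15.8 to 16.3 RPKM in Eed null EBs, against 49.6 to 55.3 RPKM in WT. Tceb3, which encodes Elongin A, was 6.17 to 8.02 RPKM in EloA null CCE mESCs, against 10.7 to 11.7 RPKM in WT, so its RNA was not lost. The 7 pluripotency markers summed to 1650.2 to 2336 RPKM in mESC libraries.

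Most of these meiotic genes had RNA in WT stem cells at levels that day 5 EBs no longer showed. Hormad1 averaged 0.187 RPKM in CJ7 WT EBs and 17.8 RPKM in CJ7 WT mESCs, so that the EB mean was 1.05% of the mESC mean. Smc1b averaged 0.406 RPKM in the EBs and 23.4 RPKM in the mESCs (1.73%), and Syce1 averaged 0.412 RPKM in the EBs and 13.02 RPKM in the mESCs (3.17%). The cohesin gene Stag3 averaged 4.08 RPKM in CJ7 WT EBs and 29.0 RPKM in CJ7 WT mESCs (14.1%), and Rec8 averaged 2.51 RPKM in the EBs and 6.18 RPKM in the mESCs (40.6%). Syce2 averaged 35.5 RPKM in the EBs and 71.3 RPKM in the mESCs (49.9%). The stages were deposited as separate tables, so these ratios carry no test. In these bulk libraries fewer cells of a type and less RNA per cell cannot be told apart.

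CCE WT cells showed the same order of stages, apart from Sycp2. Hormad1 was 0.0184 and 0 RPKM in the CCE WT EBs and 13.6 to 13.9 RPKM in the 3 CCE WT mESC libraries, which is 1 and 0 reads in the EBs. Stag3 averaged 4.13 RPKM in CCE WT EBs and 16.9 RPKM in CCE WT mESCs (24.5%), and Syce2 averaged 34.0 RPKM in the EBs and 41.4 RPKM in the mESCs (82.2%). Sycp2 was near 0 in both, at 0.0260 and 0.0952 RPKM in EBs and 0.0368 to 0.0970 RPKM in mESCs.

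Spo11 was the one member with more reads in EBs than in mESCs in every genotype. It had 34 to 102 reads in each of the 14 EB libraries, at 0.381 to 1.13 RPKM. It had 0 to 2 reads in each of the 14 mESC libraries, with 0 reads in all 5 WT mESC libraries and in the 3 EloA null ones. A count of 0 allows up to 3 reads per library, for counting error only. Spo11 therefore could not be tested between mESC groups.

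**Figure D1:**
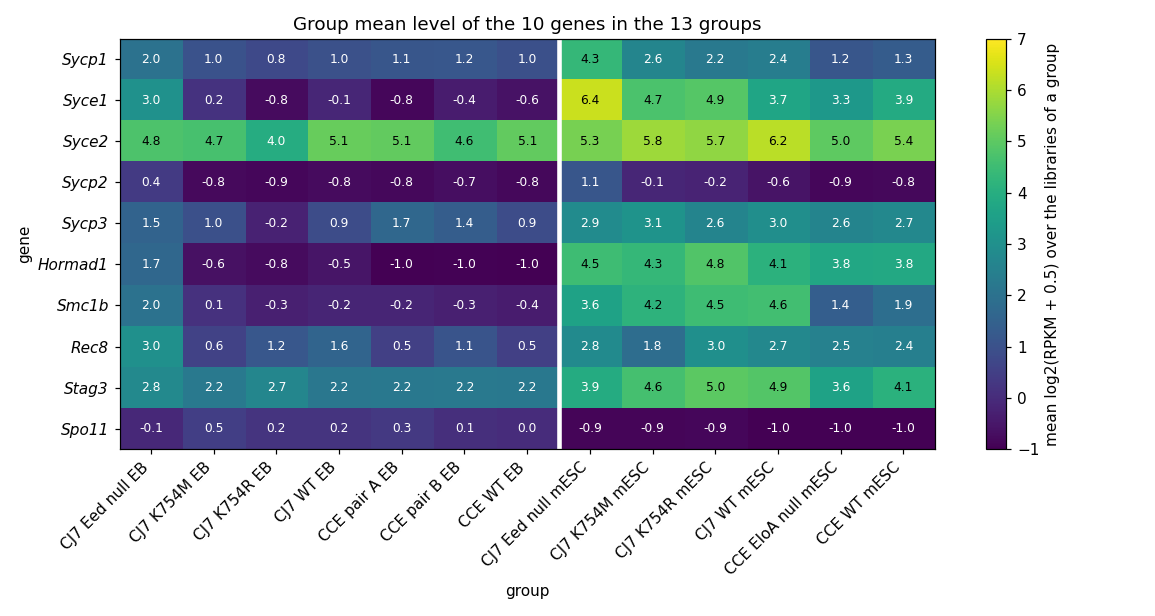
Mean log2(RPKM + 0.5) of the 10 genes (vertical axis) in the 13 groups (horizontal axis), EB groups left of the white line and mESC groups right of it, which come from separately deposited tables. Apart from Rec8 and Spo11, each gene has its highest group mean in an mESC group, Spo11 sits near the floor there, and Eed null EBs stand above the other EB groups in Syce1, Hormad1, Smc1b, Rec8 and Sycp2.

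Within CJ7 WT mESCs, where RPKM allows levels of genes to be set side by side per length of exon, Syce2 was highest with 77.1 and 65.5 RPKM. Stag3 (34.3 and 23.7 RPKM) and Smc1b (23.0 and 23.8 RPKM) followed and overlapped. Hormad1 (13.04 and 22.5 RPKM) and Syce1 (9.72 and 16.3 RPKM) overlapped next, and then Sycp3 (7.82 and 6.81 RPKM) and Rec8 (6.999 and 5.35 RPKM). Sycp1 had 4.42 and 5.09 RPKM. Partners in a structure could thus be at unlike levels: the lateral element gene Sycp2 (0.0727 and 0.296 RPKM, 5 and 25 reads) lay far under Sycp3. Of the Sycp3 exon bases, 52.2% overlap exons of Chpt1 on the opposite strand in GENCODE M21. Whether reads were counted by strand is not given in the sources used here, so Sycp3 values are uncertain, with Chpt1 at 2.29 to 7.71 RPKM over the 28 libraries.

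The first comparison asked which of these genes differ when PRC2 lacks Eed. In CJ7 mESCs, 3 of the 9 members tested rose in Eed null cells and none fell, by limma on log2(RPKM + 0.5) with an adjusted p below 0.05 over all 21012 genes tested. Of all genes tested, 5.32% rose. The 3 were Syce1 and Sycp1 of the synaptonemal complex and Sycp2 of the lateral element. The median log2 change of the 9 members was 0.08, against 0.05 over all genes.

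Syce1, of the central element, was 85.4 and 77.9 RPKM in Eed null mESCs, against 9.72 and 16.3 RPKM in WT. Both Eed null libraries lay far above both WT libraries. Syce1 rose by 2.65 ± 0.25 on the log2 scale (SE, n = 2 per group, limma adjusted p = 0.00304), a ratio of means of 6.27. This call held whichever library was left out, with adjusted p between 0.00812 and 0.0355. Sycp1, the transverse filament gene, was 19.6 and 19.4 RPKM in Eed null mESCs, against 4.42 and 5.09 RPKM in WT. The groups did not overlap, and Sycp1 rose by 1.93 ± 0.36 (adjusted p = 0.0268). Sycp2 was 1.67 and 1.699 RPKM in Eed null mESCs (145 and 143 reads), against 0.0727 and 0.296 RPKM in WT (5 and 25 reads). It rose by 1.69 ± 0.29 (adjusted p = 0.0211). The calls of Sycp1 and Sycp2 ended when any single library of either group was left out, with adjusted p of 0.104 to 0.194 for Sycp1 and 0.0622 to 0.192 for Sycp2.

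The other 6 members tested did not pass. Syce2, a partner of Syce1 in the central element, was 41.0 and 39.4 RPKM in Eed null mESCs, against 77.1 and 65.5 RPKM in WT. Its groups did not overlap, and the log2 change was -0.81 ± 0.27 (limma adjusted p = 0.116). It would pass as lower with the replicate number as a block (adjusted p = 0.0406) and with all 14 mESC libraries in 1 fit (adjusted p = 0.0197). Among the cohesin genes, Stag3 was 15.2 and 14.2 RPKM in Eed null mESCs, against 34.3 and 23.7 RPKM in WT (-0.93 ± 0.43, adjusted p = 0.226). Smc1b was 12.1 and 11.2 RPKM in Eed null mESCs, against 23.0 and 23.8 RPKM in WT (-0.98 ± 0.51, adjusted p = 0.282). Both were lower in each Eed null library than in either WT library without passing the test. Rec8, Hormad1 and Sycp3 overlapped between the groups, with log2 changes of 0.08 ± 0.29, 0.37 ± 0.33 and -0.11 ± 0.80. The 95% interval of Sycp3, -2.01 to 1.79, does not exclude large changes of that gene in either direction.

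Marker lists also differed between Eed null and WT mESCs. The 10 markers of day 5 differentiation summed to 7.41 to 8.15 RPKM in Eed null mESCs, against 1.93 to 2.23 RPKM in WT. Of the 6 tested, Hand1 and Sox17 passed the filter on low values only through 1 of the groups compared. Of the 4 others 0 were called, with a median log2 change of 1.21. Hand1, a mesoderm gene given here with no test, averaged 0.779 RPKM in Eed null mESCs and 0.0906 RPKM in WT. The pluripotency gene Sox2 averaged 58.3 RPKM in Eed null mESCs and 86.8 RPKM in WT, and fell (limma adjusted p = 0.0302), while the 7 pluripotency markers summed to 1814 to 1898 RPKM in Eed null mESCs, against 1662 to 2068 RPKM in WT. The 10 feeder fibroblast markers summed to 174 to 259 RPKM in Eed null mESCs, against 137 to 180 RPKM in WT, and Postn among them fell, to 5.42 RPKM in Eed null mESCs, against 43.2 RPKM in WT (adjusted p = 0.0349). The 7 germ cell markers summed to 83.9 to 88.9 RPKM in Eed null mESCs, against 50.3 to 73.5 RPKM in WT, and Mael rose. The part of these cell states in the rise of Syce1, Sycp1 and Sycp2 was not tested.

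**Figure D2:**
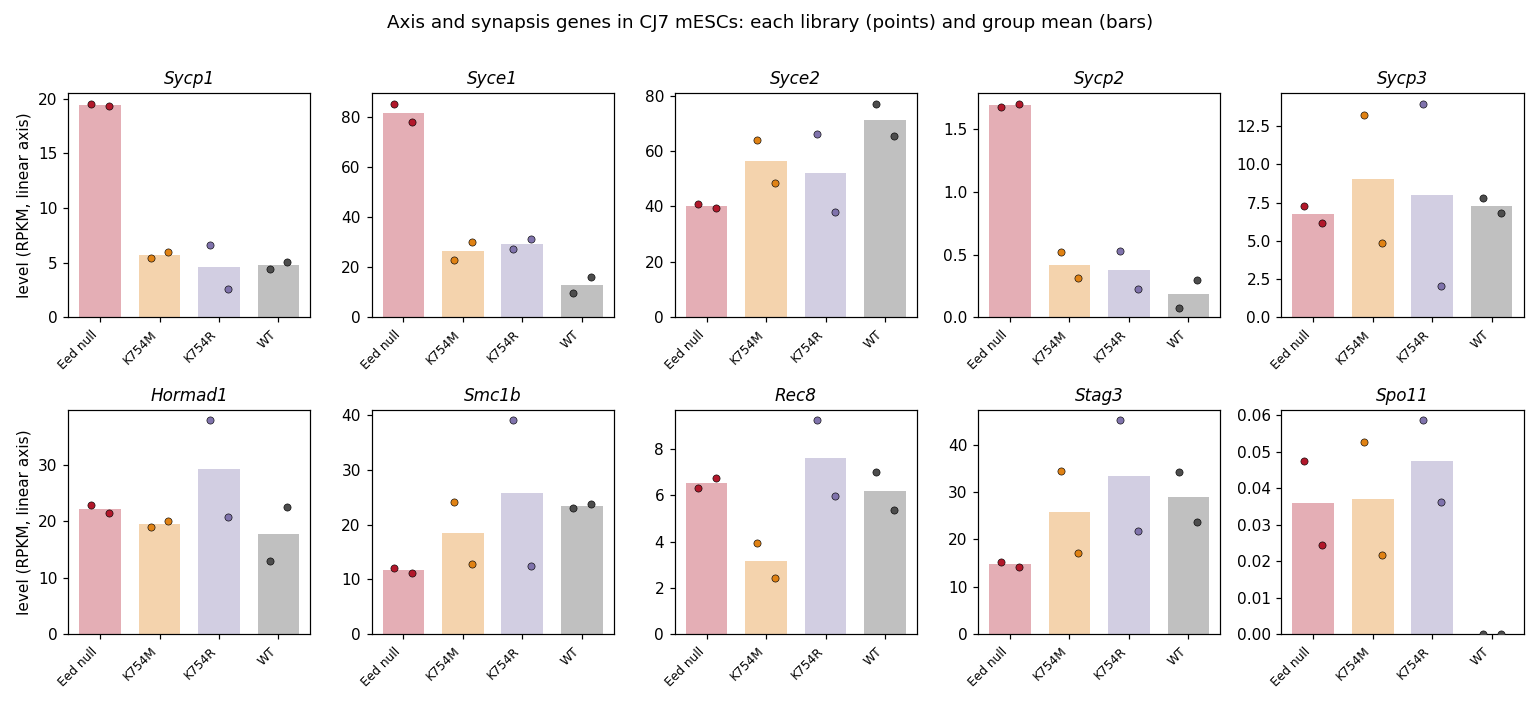
RPKM (vertical axis, linear, each panel with its own range) of the 10 genes in the CJ7 mESC groups (horizontal axis), with points for libraries and bars for group means. Both Eed null points of Syce1, Sycp1 and Sycp2 lie above every other point, and the first K754R library stands above the second in Sycp3 (13.98 against 2.06 RPKM), Smc1b (39.1 against 12.5 RPKM) and Stag3 (45.1 against 21.8 RPKM).

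Set against the substitution lines, the Eed null mESCs again differed in Syce1 and Sycp1. Against K754M these 2 of 9 members rose (limma, 4.85% of all genes rose), with Syce1 at 22.8 and 30.0 RPKM and Sycp1 at 5.43 and 6.03 RPKM in K754M libraries. The log2 differences, Eed null minus K754M, were 1.62 ± 0.25 for Syce1 (adjusted p = 0.0164) and 1.68 ± 0.36 for Sycp1 (adjusted p = 0.0423). The Syce1 call was lost without K754M replicate 1 or without either Eed null library, and the Sycp1 call was lost without any single library. Against K754R, Syce1, Sycp1 and Sycp2 rose (3 of 9, with 4.06% of all genes), by 1.46 ± 0.25, 2.08 ± 0.36 and 1.34 ± 0.29 (adjusted p = 0.0249, 0.0250 and 0.0489). Syce1 and Sycp2 were lost there without any single library, and Sycp1 without either Eed null library. Sycp2 kept its call in 3 of the 8 other settings tried. These comparisons share the Eed null libraries with the one against WT.

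The substitutions themselves were compared with WT to ask whether the lysine they replace bears on these genes. In K754M mESCs, 0 of 9 members passed limma's test, 2 had an unadjusted p below 0.05, and 0.0% of all genes were called, while 2103 had an unadjusted p below 0.05. In K754R mESCs, 0 of 9 members passed, 1 had an unadjusted p below 0.05, and 0.162% of all genes were called. Syce1 was 22.8 and 30.0 RPKM in K754M and 27.3 and 31.4 RPKM in K754R libraries, all above the 9.72 and 16.3 RPKM of WT. Its log2 change was 1.02 ± 0.25 in K754M (adjusted p = 0.232) and 1.18 ± 0.25 in K754R (adjusted p = 0.130). Neither passed. With all 14 mESC libraries in 1 fit, Syce1 in K754R would pass at an adjusted p of 0.0370.

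K754M and K754R mESCs did not differ from each other in any of the 9 members by limma (0 called, 1 with an unadjusted p below 0.05, and 0.00952% of all genes called). Rec8 was 3.95 and 2.42 RPKM in K754M and 9.25 and 5.96 RPKM in K754R libraries, a log2 difference of -1.14 ± 0.29 (adjusted p = 0.280). Over the 9 members, the 95% intervals of the difference reached as low as -1.84 and as high as 2.40. Their widths differed by member, and each interval bounds only its own gene. The 2 libraries of each substitution also lay apart. Summed levels of 10 feeder fibroblast markers were 137 RPKM in K754M replicate 1 and 322 RPKM in replicate 2, and 175 and 667 RPKM in K754R replicates 1 and 2. In both pairs the library with the higher feeder sum had the lower Sycp3, Smc1b, Stag3, Syce2, Rec8 and Sycp2. Syce1 lay the other way in both, at 22.8 and 30.0 RPKM in K754M and 27.3 and 31.4 RPKM in K754R replicates 1 and 2. Sycp1 and Hormad1 were higher in the library with the higher feeder sum in K754M and lower in it in K754R. The part of feeder RNA in these values was not tested.

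In day 5 EBs the members called between Eed null and WT were the synaptonemal complex genes Sycp1 and Syce1 and the cohesin genes Smc1b and Rec8. Hormad1 and Sycp2 reached 0.25 RPKM only in Eed null libraries, so they entered the fit through the group in which they are high and are described with no test. Of the 8 other members, 4 rose in Eed null EBs and none fell (limma adjusted p below 0.05). Of all 19300 genes tested 19.2% rose, and of the 17626 that did not depend on 1 of the 2 groups to pass the filter 16.4% rose. The median log2 change was 0.86 over the 8 members and 0.02 over those 17626 genes.

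Syce1 was 8.20 and 7.23 RPKM in Eed null EBs (475 and 366 reads), against 0.460 and 0.365 RPKM in WT (21 and 17 reads). It rose by 3.17 ± 0.23 on the log2 scale (SE, n = 2 per group, limma adjusted p = 0.000125), and the ratio of the RPKM means was 18.7. Sycp1 was 2.98 and 4.23 RPKM in Eed null EBs, against 1.12 and 1.88 RPKM in WT, and rose by 1.05 ± 0.28 (adjusted p = 0.0279). The groups did not overlap in either gene, and the Sycp1 call was lost without WT replicate 1 or Eed null replicate 2, with adjusted p up to 0.128. Syce2 was 30.0 and 23.5 RPKM in Eed null EBs, against 27.3 and 43.8 RPKM in WT (-0.37 ± 0.23, adjusted p = 0.269), and its groups overlapped.

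Of the axis genes, Hormad1 was 2.33 and 3.05 RPKM in Eed null EBs (164 and 187 reads), against 0.126 and 0.248 RPKM in WT (7 and 14 reads). The ratio of the means was 14.4. Sycp2 was 0.717 and 0.858 RPKM in Eed null EBs (178 and 186 reads), against 0.0766 and 0.105 RPKM in WT (15 and 21 reads), a ratio of means of 8.65. Both Eed null libraries lay above every other CJ7 EB library in each gene. Sycp3 was 2.21 and 2.61 RPKM in Eed null EBs, against 0.997 and 1.695 RPKM in WT, without overlap but short of the threshold (0.68 ± 0.25, limma adjusted p = 0.0767, or 0.0362 with the replicate block).

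The cohesin genes differed among themselves in EBs. Smc1b was 3.09 and 4.002 RPKM in Eed null EBs, against 0.253 and 0.559 RPKM in WT. It rose by 2.17 ± 0.25 (limma adjusted p = 0.000825), a ratio of means of 8.74. Rec8, the subunit that the protease separase cuts in meiosis, was 6.83 and 8.41 RPKM in Eed null EBs, against 2.28 and 2.74 RPKM in WT. It rose by 1.43 ± 0.19 (adjusted p = 0.00169), and its Eed null EB mean, 7.62 RPKM, was 117% of the Eed null mESC mean of 6.53 RPKM. Stag3 was 5.37 and 7.51 RPKM in Eed null EBs, against 3.28 and 4.88 RPKM in WT (0.60 ± 0.23, adjusted p = 0.0872). It would pass as higher with the replicate block (adjusted p = 0.0162) and with all 14 EB libraries in 1 fit (adjusted p = 0.0412). Syce1, Smc1b and Rec8 kept their calls whichever of the 4 libraries was left out. Spo11 was 0.381 and 0.502 RPKM in Eed null EBs, against 0.903 and 0.454 RPKM in WT (-0.30 ± 0.25, adjusted p = 0.407), and overlapped.

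**Figure D3:**
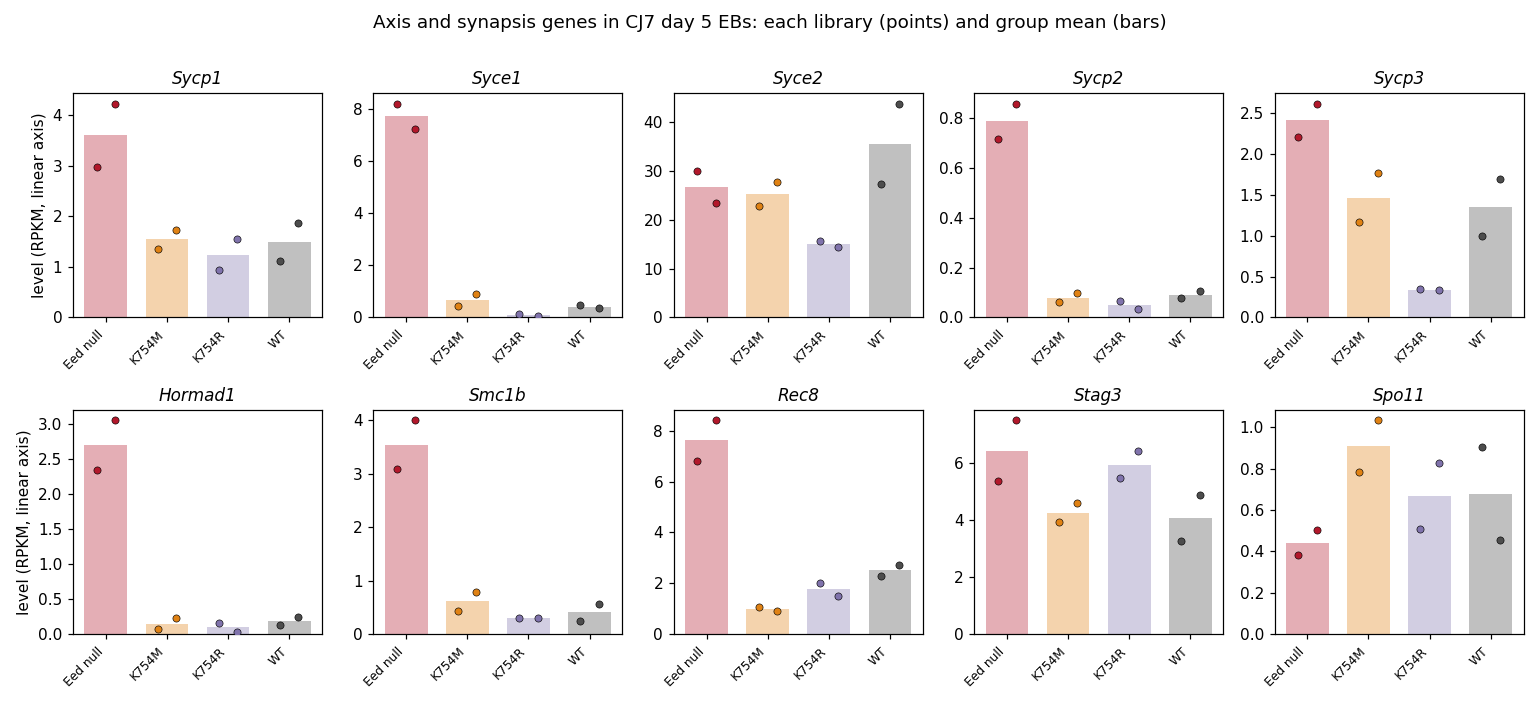
RPKM (vertical axis, linear, each panel with its own range) of the 10 genes in the CJ7 day 5 EB groups (horizontal axis), with points for libraries and bars for group means. Eed null points lie above all others in Syce1, Hormad1, Smc1b, Rec8, Sycp1, Sycp2 and Sycp3, and the K754R points are the lowest in Syce2 and Sycp3.

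Marker lists moved with the Eed null EBs. The 7 pluripotency markers summed to 827 to 905 RPKM in Eed null EBs, against 234 to 295 RPKM in WT, and 6 of 7 rose. The 10 markers of day 5 differentiation summed to 63.6 to 80.8 RPKM in Eed null EBs, against 175 to 215 RPKM in WT. Of these 8 were lower and 1, Pax6, was higher. Over all 19300 genes tested, 19.2% rose and 2164 fell. The 7 germ cell markers summed to 34.8 to 35.3 RPKM in Eed null EBs, against 5.65 to 7.38 RPKM in WT. Of the 5 germ cell markers that did not depend on 1 group to pass the filter, 4 rose. The 8 markers of late spermatogenic cells stayed near 0, with sums of 0.854 to 0.880 RPKM in Eed null EBs, against 0.494 to 0.509 RPKM in WT. The part of these cell states in the members' values was not tested.

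The Eed null EBs were also set against the substitution lines. Hormad1 and Sycp2 entered these comparisons too only through the Eed null libraries, and are left out of the counts. Against K754M, Syce1, Sycp1, Smc1b and Rec8 rose (4 of 8 by limma). Of all genes 18.0% rose, and 15.0% of those that did not depend on 1 of the 2 groups to pass the filter. Rec8 was 6.83 and 8.41 RPKM in Eed null EBs, against 1.07 and 0.926 RPKM in K754M (2.43 ± 0.19, adjusted p = 0.000193). Against K754R those 4 rose together with Syce2 and Sycp3 (6 of 8), with 20.4% of all genes and 17.5% of those that did not depend on 1 group. Syce1 there had 475 and 366 reads in Eed null EBs, against 6 and 2 reads in K754R (3.79 ± 0.23, adjusted p = 4.59e-05). The Sycp3 difference, 1.79 ± 0.25 (adjusted p = 0.00141), held without any single library. Both counts share the Eed null libraries with the comparison to WT.

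**Figure D4:**
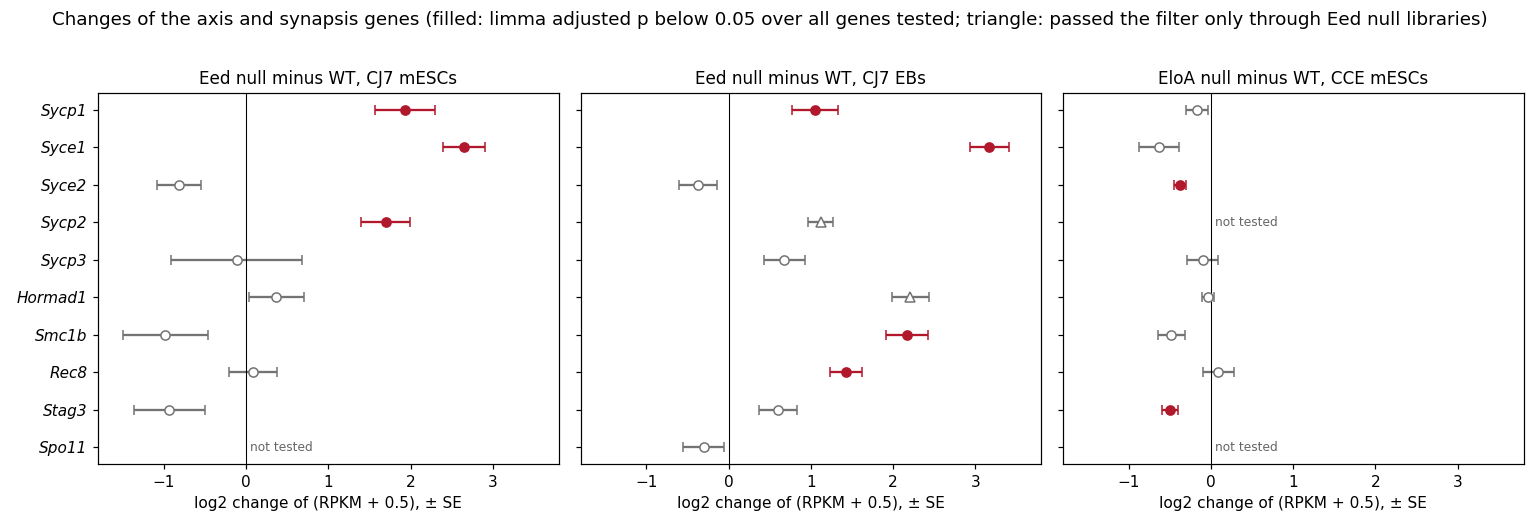
Log2 change of (RPKM + 0.5) with its SE (horizontal axis) for each gene (vertical axis) in Eed null minus WT mESCs, Eed null minus WT EBs and EloA null minus WT CCE mESCs, with filled points for an adjusted p below 0.05. Filled points lie above 0 in both Eed null panels (3 genes in mESCs, 4 in EBs, where the open triangles of Hormad1 and Sycp2 mark genes with no test) and below 0 in the EloA null panel (Syce2 and Stag3).

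No member was called higher in EBs of either substitution. Stag3 lay above both WT libraries in both K754R libraries without passing, at 5.48 and 6.43 RPKM in K754R, against 3.28 and 4.88 RPKM in WT. In K754M EBs, 0 of 10 members passed limma's test, 1 had an unadjusted p below 0.05, and 0.565% of all genes were called. That member was Rec8, at 1.07 and 0.926 RPKM in K754M EBs, against 2.28 and 2.74 RPKM in WT (-1.001 ± 0.195, adjusted p = 0.0820). In K754R EBs, Syce2 and Sycp3 fell (2 of 10, with 4.85% of all genes lower). Syce2 was 15.7 and 14.3 RPKM in K754R EBs, against 27.3 and 43.8 RPKM in WT, and fell by 1.18 on the log2 scale (SE 0.23, limma adjusted p = 0.0252). Sycp3 was 0.347 and 0.335 RPKM in K754R EBs, against 0.997 and 1.695 RPKM in WT (-1.11 ± 0.25, adjusted p = 0.0354). The groups did not overlap in either gene.

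Both K754R calls were lost without WT replicate 2 or either K754R library, with adjusted p up to 0.142 for Syce2 and 0.163 for Sycp3. Chpt1, which overlaps Sycp3, was 2.99 and 3.40 RPKM in K754R EBs, against 2.29 and 2.61 RPKM in WT. Syce1 was 0.144 and 0.0431 RPKM in K754R EBs (6 and 2 reads), against 0.460 and 0.365 RPKM in WT (21 and 17 reads), without passing (-0.62 ± 0.23, adjusted p = 0.138). Cell state markers moved with K754R as well. The pluripotency sum was 36.8 to 43.8 RPKM in K754R EBs, against 234 to 295 RPKM in WT, the fibroblast sum 33.2 to 38.7 in K754R against 5.88 to 8.47 in WT, and the germ cell sum 1.92 to 2.42 in K754R against 5.65 to 7.38 in WT. The part of these markers in the members' values was not tested.

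Between the substitutions in EBs, Sycp3 was the single member called, at 1.17 and 1.76 RPKM in K754M and 0.347 and 0.335 RPKM in K754R. The difference, K754M minus K754R, was 1.21 ± 0.25 (limma adjusted p = 0.0469), where 1.9% of all genes were higher in K754M. It was lost when any single library was left out, with adjusted p of 0.146 to 0.243. Syce1 was 0.430 and 0.888 RPKM in K754M and 0.144 and 0.0431 RPKM in K754R, a difference of 0.94 ± 0.23 (adjusted p = 0.0775). Rec8 lay the other way, at 1.07 and 0.926 RPKM in K754M and 2.00 and 1.51 RPKM in K754R (-0.58 ± 0.19, adjusted p = 0.159). The 95% intervals of these 2 differences were 0.39 to 1.49 and -1.04 to -0.13.

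The CCE mESCs were compared to ask what differs when EloA itself is lost. In EloA null CCE mESCs, Syce2 and Stag3 fell (2 of the 8 members tested, with 1.23% of all genes lower by limma). Syce2 was 30.7, 31.7 and 32.4 RPKM in EloA null mESCs, against 37.1, 44.4 and 42.7 RPKM in WT, and fell by 0.38 on the log2 scale (SE 0.07, n = 3 per group, limma adjusted p = 0.0455). Stag3 was 11.4, 12.9 and 11.03 RPKM in EloA null mESCs, against 15.2, 18.5 and 16.9 RPKM in WT, and fell by 0.50 (SE 0.09, adjusted p = 0.0394). The groups did not overlap in either gene. Leaving out any library other than WT replicate 1 ended both calls, with adjusted p up to 0.188 for Syce2 and 0.160 for Stag3, as did a fit without the trend, without the filter on low values or with all 14 mESC libraries.

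Same-numbered libraries of this comparison deviated together, and with the replicate number as a block 3 members were called, the third being Syce1 at an adjusted p of 0.0140. Syce1 was 11.3, 8.53 and 7.64 RPKM in EloA null mESCs, against 20.7, 12.02 and 11.8 RPKM in WT, and missed the threshold without the block (-0.63 ± 0.24, limma adjusted p = 0.240). The same block raised the number of genes called overall to 2288, against 619 without it. Hormad1 was 12.2, 14.1 and 14.2 RPKM in EloA null mESCs, against 13.8, 13.6 and 13.9 RPKM in WT, with a 95% interval of the log2 change of -0.20 to 0.14. Rec8, Sycp1, Sycp3 and Smc1b overlapped between the groups, and Sycp2 and Spo11 were too low to test. Feeder marker sums were 265, 130 and 165 RPKM in the EloA null libraries, against 183, 83.3 and 60.9 RPKM in WT, and their part, like that of depth, was not tested.

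The Eed null and EloA null changes were set against each other in 1 fit of all 14 mESC libraries, each change taken against the WT of its own line. The difference, Eed null change minus EloA null change, was 3.28 ± 0.39 for Syce1 (limma adjusted p = 0.000498), 2.10 ± 0.39 for Sycp1 (adjusted p = 0.00622) and 1.72 ± 0.28 for Sycp2 (adjusted p = 0.00299). These 3 of 9 members were higher, with 8.02% of all genes. Each stayed past the threshold in all 7 alternatives that kept every library. The difference shares the Eed null and WT libraries of CJ7 with the comparison above, where the calls of Sycp1 and Sycp2 were less stable. For Sycp2 it rests on the CJ7 side, since the CCE mESC libraries had 4 to 28 reads and Sycp2 was too low to test there. Genotype and line cannot be told apart in this difference. For Stag3 and Syce2, the genes called in EloA null cells, the difference was -0.44 ± 0.44 and -0.43 ± 0.28 (adjusted p = 0.589 and 0.359).

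The 2 CCE EB pairs showed no called member. Pair A against WT gave 0 of 8 by limma, with 0 members at an unadjusted p below 0.05, and 0.0% of all genes called, with 1166 genes at an unadjusted p below 0.05. Pair B against WT gave 0 of 8, with 1 member at an unadjusted p below 0.05 and 0.135% of all genes called. Pair A against pair B gave 0 of 8, with 2 members at an unadjusted p below 0.05 and 0.44% of all genes called. For Syce2 the pair A libraries had 30.4 and 36.2 RPKM and the pair B libraries 23.7 and 22.5 RPKM, against 28.9 and 39.1 RPKM in WT. The pair B change was -0.53 ± 0.17 (adjusted p = 0.222). For Rec8 the pair A libraries had 0.877 and 0.960 RPKM and the pair B libraries 1.25 and 2.05 RPKM, against 0.897 and 0.961 RPKM in WT, a pair B change of 0.57 ± 0.23 (adjusted p = 0.327). Hormad1 had 0 or 1 read in each of the 6 CCE EB libraries, and Sycp2 had 5 to 25 reads.

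**Figure D5:**
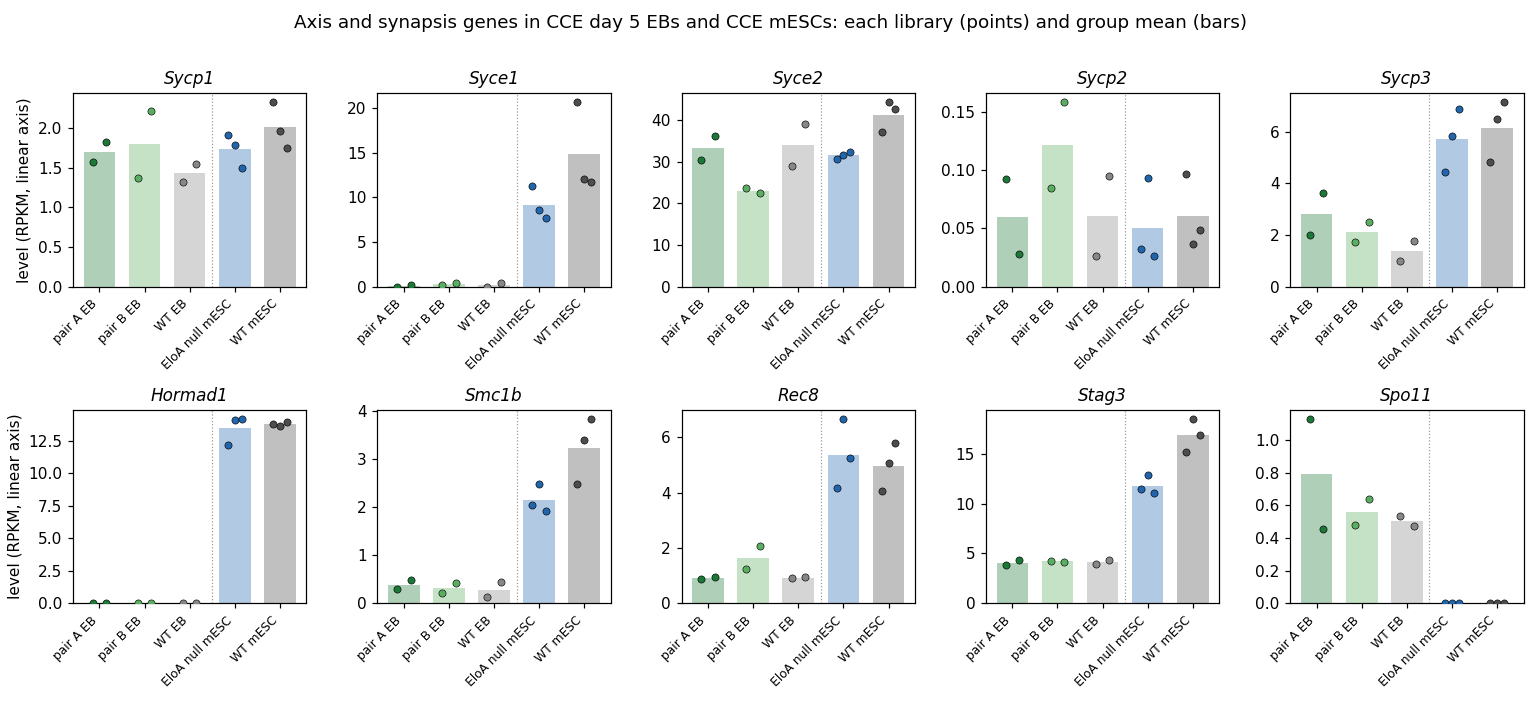
RPKM (vertical axis, linear, each panel with its own range) of the 10 genes in the CCE groups (horizontal axis), EB groups left of the dotted line and mESC groups right of it, with points for libraries and bars for group means. Syce2 and Stag3 points of EloA null mESCs lie below those of WT mESCs, and Hormad1 is near 0 in all EB libraries and 12.2 to 14.2 RPKM in mESCs.

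The WT cells of the 2 lines differed in stem cells. In CJ7 WT against CCE WT mESCs, Smc1b, Sycp1 and Syce2 were higher in CJ7 (3 of 9 members, with 12.5% of all genes higher by limma). Smc1b was 23.0 and 23.8 RPKM in CJ7 WT mESCs, against 2.48, 3.39 and 3.84 RPKM in CCE WT. The difference was 2.70 ± 0.39 (adjusted p = 0.000664), a ratio of means of 7.24, and it held in all 12 alternatives. Sycp1 differed by 1.07 ± 0.27 (adjusted p = 0.0176) and Syce2 by 0.78 ± 0.20 (adjusted p = 0.0162). Syce2 was lost without CJ7 replicate 1 or CCE replicate 1, and Sycp1 without either CJ7 library or CCE replicate 3. The partners of Smc1b in meiotic cohesin were closer. Stag3 differed by 0.74 ± 0.31 (adjusted p = 0.118) and Rec8 by 0.29 ± 0.25 (adjusted p = 0.459).

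In EBs Rec8 was the single member called between the lines, at 2.28 and 2.74 RPKM in CJ7 WT EBs, against 0.897 and 0.961 RPKM in CCE WT (1.07 ± 0.21, limma adjusted p = 0.0138, with 4.17% of all genes higher in CJ7). It was lost without CJ7 replicate 2 or either CCE library, with adjusted p up to 0.0943. Smc1b, at 0.253 and 0.559 RPKM in CJ7 WT EBs, against 0.137 and 0.432 RPKM in CCE WT, overlapped. Cell state markers moved with the line at both stages. In mESCs 3 of the 7 pluripotency markers, Klf4, Esrrb and Pou5f1, were lower in CJ7 WT, where 2221 of all 21780 genes were lower. Klf4 was 15.2 RPKM in CJ7 WT mESCs, against 41.9 RPKM in CCE WT (-1.44 ± 0.14, limma adjusted p = 3.49e-05). The pluripotency sum was 234 to 295 RPKM in CJ7 WT EBs, against 80.8 to 113 RPKM in CCE WT, with Pou5f1, Tdgf1 and Zfp42 called higher in CJ7. Of the 10 markers of day 5 differentiation, Foxa2, Sox17 and Fgf5 were higher and Hand1 lower in CJ7 WT EBs, and the fibroblast markers Col1a1 and Twist2 were lower. The germ cell markers Dazl and Mael were higher in CJ7 WT mESCs (2 of the 6 tested, with 12.5% of all genes higher). Dazl was at 40.8 RPKM in CJ7 WT and 9.42 RPKM in CCE WT (2.02 ± 0.32, limma adjusted p = 0.00115). The part of these markers in the differences of members between the lines was not tested at either stage. Line and library set cannot be told apart.

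The rest of the meiotic prophase programme, 32 further genes found of a list of 46 symbols that holds older and newer names, was counted in the same way. In Eed null mESCs 2 of the 31 genes tested passed the filter only through 1 of the groups compared, and are left out of the count. Of the 29 others 4 rose, against 4.42% of all genes chosen likewise, and Hormad2 fell, with a median log2 change of 0.10. Those that rose were Tex12, a partner of Syce2 in the central element (3.62 RPKM in Eed null and 0.180 in WT, 2.65 ± 0.35), Tex11, which acts in crossover formation (21.4 RPKM in Eed null and 4.63 in WT, 2.13 ± 0.38), Brdt and Mov10l1. Their limma adjusted p ran from 0.00935 to 0.0224. In EBs 5 of the 24 genes tested passed the filter only through Eed null libraries, and are left out of the count. Of the 19 others 6 rose, against 16.4% of all genes chosen likewise, and Mnd1 fell, with a median of 0.33. The axis gene Hormad2 averaged 2.42 RPKM in Eed null EBs and 0.262 in WT (1.93 ± 0.16, limma adjusted p = 0.000220), and the recombinase gene Dmc1 averaged 3.46 RPKM in Eed null EBs and 0.689 in WT (1.74 ± 0.19, adjusted p = 0.000605). Tex11 (4.01 RPKM in Eed null and 0.131 in WT) and the piRNA helicase gene Mov10l1 (2.30 in Eed null and 0.0855 in WT) were among the 5 left out. Hormad2 was thus called in opposite directions at the 2 stages.

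In K754R EBs 4 of the 24 fell, against 4.85% of all genes, among them Mnd1 (19.7 RPKM in K754R and 41.4 in WT) and Psmc3ip (7.65 RPKM in K754R and 15.8 in WT), which act with Dmc1. In K754M 0 of 31 in mESCs and 0 of 24 in EBs passed limma's test, with 7 and 3 at an unadjusted p below 0.05. Of all genes, 0.0% and 0.565% were called there, and 2103 of 21012 and 2934 of 19300 had an unadjusted p below 0.05. For K754R mESCs 0 of 31 passed, with 8 at an unadjusted p below 0.05. Of all 21012 genes there 0.162% were called, and 3000 had an unadjusted p below 0.05. In EloA null CCE mESCs 4 of the 24 tested passed the filter through 1 group only, and of the 20 others 2 fell, against 1.27% of all genes chosen likewise. These were Tex15 (6.28 RPKM in EloA null and 9.65 in WT) and 4930447C04Rik.

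The mitotic counterparts of the cohesin members were measured too. Of 17 somatic cohesin genes, 0 passed in Eed null mESCs by limma, where 5.32% of all genes rose. There 2 had an unadjusted p below 0.05, as had 5484 of all 21012 genes tested, and the median log2 change was -0.22. In Eed null EBs 1 of the 17 rose (Cdca5) and 2 fell (Stag2 and Mau2). Of all 19300 genes tested in EBs, 19.2% rose and 2164 fell. Stag2, the somatic relative of Stag3, was 37.3 RPKM in Eed null EBs, against 73.8 RPKM in WT (-0.97 ± 0.10, adjusted p = 0.000566). Of 12 genes for PRC1.6 and its partners, 0 passed in Eed null mESCs. There 3 had an unadjusted p below 0.05, against the same 5484 of all 21012 genes. L3mbtl2 (21.7 RPKM in Eed null and 9.86 in WT, 1.09 ± 0.16) and Wdr5 (52.0 in Eed null and 30.9 in WT, 0.74 ± 0.12) rose in Eed null EBs. These were 2 of the 12, against 19.2% of all genes. Summed levels of the 12 genes were 280 to 305 RPKM in Eed null EBs, against 250 to 275 RPKM in WT.

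Across the 13 groups, where the contrast of EBs with mESCs carries most of the variation and the groups share lines and tables, each member was correlated with the mean of the others on the log2 scale. Syce1 followed the rest most closely (Pearson r = 0.97, n = 13 groups), then Hormad1 and Smc1b (both 0.95). Syce2 (0.72) and Sycp2 (0.62) followed it least among the genes with a positive value, and Spo11 ran against it (-0.91). Sycp1 and Sycp2 were most like each other (0.91). Of 14076 other genes with a mean of 1 RPKM or more, Arrdc4 (0.99), Steap3 (0.99), Acp5 (0.99), Rusc2 (0.99) and 4930519F16Rik (0.99) had the patterns most like the mean of the members. These values are descriptions over groups that are not independent.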

How the data were processed

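RNA-seq of 28 mouse libraries was analysed, 14 of mESCs and 14 of day 5 EBs. The authors deposited 1 RPKM value per gene and library, in 1 table per stage. Per the submitters' processing notes, the tools included STAR and CASAVA 1.7 and the build was mm9. Which program counted reads, on which annotation, and whether by strand, is not given in the sources used here. Values were analysed as log2(RPKM + 0.5), which understates changes of low genes. Tests were kept to genes with 0.25 RPKM or more in 2 or more libraries of a fit. Each stage and line had 1 limma-trend fit (limma 3.58.1, R 4.3.3), with all 14 libraries of a stage where lines or effects of lines were compared, and Benjamini-Hochberg adjustment over all genes tested. Genes that reached the filter only through 1 of the 2 groups compared were counted apart for the members and the meiotic prophase genes. The same was done in Eed null against WT for the germ cell markers in EBs and the day 5 differentiation markers in mESCs. No test crossed the stages, whose tables were made separately. The call threshold was an adjusted p of 0.05. The fit was tested on simulated data. Other steps ran in Python 3.11.15 with pandas 2.3.3 for tables and matplotlib 3.10.9 for figures.

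Depth came from the RPKM step of 1 read. Reads of Syce1, Sycp2, Smc1b, Hormad1 and Spo11 came from the same step and the exon length that made low values whole. The reads of the other members were not recovered. GENCODE M21 gave exon overlaps, and RefSeq the promoters.

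In CCE mESCs same-numbered libraries of the EloA null and WT groups deviated together (r = 0.51, 0.22 and 0.24). The main fit did not pair them, and pairing by number was run only as an alternative, the replicate block. That pairing comes from the values, not from the labels. The other fits have only 2 numbers per group. Alternatives were other pseudocounts and filters, upper quartile scaling, no trend, a replicate block, all 14 libraries in 1 fit, and leaving out each library. The members, gene lists and tests were chosen with earlier results of these data known. The text names all 10 members, up to 4 called genes of each other list by size of change, and the 5 genes most like the members.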

Additional observations from a re-analysis of the deposited data

Results flagged for a closer look

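Stag3 moved in opposite directions at the stages in Eed null cells. Its log2 change from WT was 0.60 in EBs and -0.93 in mESCs, with every Eed null library above both WT libraries in EBs and below both in mESCs. The changes lie 1.54 apart on the log2 scale. Neither passed the test in its own stage, and the difference was not tested, because the stages come from separate tables.

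Smc1b, a subunit of the same meiotic cohesin, did likewise, with a log2 change of 2.17 in EBs, where it was called, and -0.98 in mESCs, where it was not. The changes lie 3.15 apart, and the difference was not tested.

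Syce1 in K754R cells had a log2 change of -0.62 from WT in EBs and 1.18 in mESCs, an EB minus mESC difference of -1.81. Neither change was called, the EB values rest on 6 and 2 reads in K754R and 21 and 17 in WT, and the difference was not tested.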

How the results depend on the processing

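Of 629 alternative values for 52 results of single members, 526 kept their direction and their side of the threshold, 85 fell short of it, 18 newly passed it and 0 reversed. The number of members called changed as follows, with Hormad1 and Sycp2 counted in EBs although they passed the filter only through Eed null libraries. With 1 library left out, the lone library of a group is assumed to vary like the others. It was 1 in each such fit for Eed null against WT in mESCs (3 with all libraries), 0 to 1 against K754M (2) and 0 to 1 against K754R (3). In EBs it was 3 to 7 for Eed null against WT (6), 3 to 5 against K754M (6) and 5 to 7 against K754R (8), and Hormad1 and Sycp2 could not be tested without an Eed null library. It was 0 to 2 for K754R against WT (2) and 0 for K754M against K754R (1) in EBs, 0 to 2 for EloA null against WT (2), 1 to 3 for CJ7 WT against CCE WT in mESCs (3) and 0 to 1 in EBs (1).

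With a pseudocount of 0.1 the number was 1 for Eed null against K754M in mESCs and 2 for K754M against K754R in EBs, and with a pseudocount of 1 it was 0 for K754M against K754R in EBs. Without the filter it was 1 for Eed null against K754M in mESCs, and 0 for K754R against WT in EBs, for K754M against K754R in EBs and for EloA null against WT. With all 14 libraries in 1 fit it was 1 for K754R against WT and for K754M against K754R in mESCs, 1 for K754M against WT in EBs, 4 for Eed null against K754M in mESCs and 0 for EloA null against WT. For EloA null it was also 1 with upper quartile scaling and 0 without the trend. The cause of these shifts was not tested. Summing several entries per name was not run, since each member has 1. Few reads stand behind Spo11 in mESCs (0 to 2 per library), and behind Hormad1 (0 to 14) and Sycp2 (5 to 25) in EBs other than Eed null.

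With the replicate number as a block the members called were 4 for Eed null against WT (Syce2 added, as lower), 3 against K754M (Rec8 added) and 2 against K754R (Sycp2 lost) in mESCs, 8 for Eed null against WT (Sycp3 and Stag3 added) and 7 against K754M (Stag3 added) in EBs, and 3 for EloA null against WT (Syce1 added), with no other count of members changed. All 14 libraries in 1 fit also called Syce2 lower in Eed null than in WT mESCs. Outside CCE mESCs the numbers are shared by pairs of libraries only, whose deviations correlated at 0.01 to 0.43. The block gave more called genes for K754M against WT in EBs (230, 109 without it), K754R against WT in EBs (2950, 1868 without it), K754M against K754R in EBs (1099, 698 without it), pair B against WT (703, 24 without it), pair A against pair B (1462, 78 without it) and CJ7 WT against CCE WT in EBs (2407, 1366 without it). It gave 2 for K754R against WT in mESCs (34 without it).

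All 14 libraries in 1 fit gave 5211 called genes for Eed null against WT in mESCs (1805 in the fit of the line), 4792 against K754M (1560) and 4007 against K754R (1264). That fit also gave 955 for K754M against WT (0), 1747 for K754R against WT (34) and 841 for K754M against K754R (2) in mESCs, 434 for K754M against WT (109) and 1358 for K754M against K754R (698) in EBs, 296 for EloA null (619), 591 for pair B against WT (24) and 794 for pair A against pair B (78). Without the filter 14 genes were called for K754R against WT in mESCs, and in EBs 58 for K754M against WT, 1199 for K754R against WT, 425 for K754M against K754R, 1 for pair B against WT and 32 for pair A against pair B. With the filter at 1 RPKM the EB counts were 185 for K754M against WT, 150 for pair B against WT and 152 for pair A against pair B. Without the trend they were 60, 2 and 1 in the same order, and pair A against pair B also gave 1 with a pseudocount of 0.1 or upper quartile scaling. K754M against K754R in mESCs gave 0 to 8 over these other settings. With 1 library left out, Eed null against WT gave 179 to 417 called genes in mESCs and 3921 to 4647 in EBs, K754R against WT 0 in mESCs and 177 to 1249 in EBs, K754M against WT 0 to 17 and K754M against K754R 21 to 64 in EBs, and EloA null against WT 158 to 640. In the same way Eed null against K754M gave 171 to 654 in mESCs and 2847 to 3971 in EBs, Eed null against K754R gave 132 to 1324 in mESCs and 4074 to 5546 in EBs, CJ7 WT against CCE WT gave 2867 to 4150 in mESCs and 567 to 768 in EBs, and the Eed null minus EloA null change gave 1190 to 2468 (2957 with all).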
